A study of Caenorhabditis elegans with 24 samples.

Results

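The genes described here are the C-type lectin genes of the nematode Caenorhabditis elegans. They were taken by name and count: the gene name is clec- followed by a number, and at least 3 of the 24 libraries hold 10 or more estimated counts. This gave 170 members out of 237 entries with such a name and 43800 entries in all. The other 67 entries were under the count rule, and 4 of them had no count in any library. Of the 170 members, 169 also passed the expression filter of the test, in which 15871 genes were tested, and clec-110 did not. Just inside the rule were clec-109, clec-110, clec-134 and clec-157, each with 10 counts in 3 libraries that were all N2, and clec-34 with 3 libraries that were all mutant. Just outside it was clec-193, with 2 libraries, both N2. The rule used no comparison between groups, but 21 members reached it in the N2 libraries alone, and those members had to be higher in N2. Another 12 reached it in the 18 mutant libraries alone, which, with 6 N2 libraries, need not mean a difference. At the other end, 71 members had 10 or more counts in all 24 libraries.

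RNA came from whole L4 hermaphrodites of 3 mutant strains and of the wild-type strain N2. The mutants were efk-1(ok3609), labelled efk1, then zip-2(tm4248), labelled zip2, and cep-1(gk138), labelled cep1. Each strain was starved or fed, with 3 libraries in each of the 8 groups. Starved animals were washed 5 times at mid-L4 and then left without bacteria for 8 h, and fed animals were frozen at mid-L4 on OP50, the usual Escherichia coli food. Starved animals were therefore also 8 h older, and food and age cannot be told apart. Each mutation was represented by 1 allele. Nothing in the labels says that the 3 libraries of a group came from separate cultures, so p-values measure the spread between these libraries, which may be technical.

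C-type lectins are secreted or membrane proteins built around a fold that in many animal lectins binds sugars with the help of calcium. In C. elegans the family is large, many members are made in the intestine, and many are induced when animals feed on pathogenic bacteria, in part through the p38 MAP kinase pathway of innate immunity. Of the targeted genes, efk-1 encodes the kinase of translation elongation factor 2, zip-2 a bZIP transcription factor of the immune response, and cep-1 the worm relative of p53.

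Libraries held 14622266 to 30266282 counts. Values are given as CPM, each count relative to its library's total, after scaling of the totals by TMM factors of 0.651 to 1.31. The efk-1 transcript averaged 8.31 CPM in fed efk1 libraries, against 34.9 CPM in fed N2, and 11.8 CPM in starved efk1, against 86.2 CPM in starved N2. The zip-2 transcript of zip2 libraries did not pass the test against N2 (log2 fold change -0.81 fed and -0.52 starved). The cep-1 transcript was not lower in the libraries labelled cep1 (log2 fold change 0.34 fed, adjusted p = 0.552, and -0.21 starved, adjusted p = 0.818, both by edgeR against N2). That group is therefore called by its label throughout. In whole animals, fewer cells of a type and less RNA per cell cannot be told apart.

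The family as a whole took a small and fairly even part of each library. Its members summed to 0.481% to 0.762% of the counts. The share was 0.616% ± 0.040 in starved efk1, 0.577% ± 0.023 in fed efk1, 0.582% ± 0.089 in starved zip2 and 0.509% ± 0.044 in fed zip2. It was 0.687% ± 0.069 in starved cep1, 0.639% ± 0.038 in fed cep1, 0.567% ± 0.030 in starved N2 and 0.550% ± 0.036 in fed N2 (SD, n = 3 each). Within the family, levels were very uneven. The mean over the 24 libraries had a median of 2.54 CPM across members, with 52 members under 1 CPM, 46 above 10 CPM and 8 above 100 CPM. The member with the highest mean was 17851 times the lowest.

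One gene, clec-63, made up 32.5% to 47.3% of the family's CPM in a library. It lies on the plus strand of chromosome II from 12895638 to 12897446 (WBcel235) and averaged 2353 CPM, or 1814 RPKM once scaled per kilobase of exon, with 1541 CPM in the lowest library and 4171 CPM in the highest. In N2 its values were 1693, 2800 and 1686 CPM in starved libraries, against 2643, 2213 and 2227 CPM in fed ones. The 2 sets overlap, and clec-63 passed the starvation test in no strain (log2 fold changes 0.07 in efk1, 0.45 in zip2, 0.21 in cep1 and -0.20 in N2). Next by RPKM came clec-87 (chromosome I, 10184462 to 10185520) at 723 RPKM, which encodes the chondroitin proteoglycan CPG-5 of oocyte and eggshell, and clec-50 (chromosome V, 19752399 to 19755368) at 501 RPKM. After these stood clec-209 at 221 RPKM, clec-83 at 219 RPKM and clec-150 at 158 RPKM. The symbol clec-209 stands for 2 loci in the annotation, so no position is given for it. The gene clec-47 ranked 7th by RPKM but 14th by CPM, because its exons are short. Some of these genes overlap exons of a neighbour, among them clec-87 with iars-2 and clec-83 with Y54G2A.7, both on the other strand. The libraries were strand-specific, but whether the counting used strand is not given in the sources used here. In all, 27 members overlap an exon of another gene.

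Members lie mostly on chromosomes V (58), IV (40) and II (38), with 21 on I, 10 on III and 3 on X. Many are neighbours: 102 of 170 start or end within 10 kb of another member, and 12 runs of 3 or more such neighbours hold 64 members. The longest run, on chromosome V from 16839121 to 16869840, holds 12 members from clec-40 to clec-33. Another on chromosome IV from 3922165 to 3975721 holds 10, from clec-67 to clec-79.

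Starvation changed many C-type lectin genes in both directions, and by large factors. In N2, 34 members rose and 33 fell out of 169 tested, while 15.9% of all genes tested rose and 16.4% fell. That is 39.6% of the members in either direction, against 32.3% of all genes. The median log2 fold change was 0.02 over the members and 0.00 over all genes, so the family did not move one way. The test was edgeR's quasi-likelihood F-test with Benjamini-Hochberg adjustment over all 15871 genes at 0.05. Leaving out 1 library at a time gave 52 to 61 calls in N2.

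The member with the largest rise in N2 was clec-82 (chromosome IV, 2835664 to 2838723, plus strand). Its level was 7.37, 11.9 and 7.20 CPM in starved N2 libraries, against 0.603, 0 and 0 CPM in fed N2. All starved libraries stood above all fed ones, in each strain, and 2 of 3 fed N2 libraries had none of its counts. The log2 fold change was 5.56 ± 1.08 (SE, edgeR adjusted p = 0.000776). Part of an exon of clec-82 is shared with Y54G2A.7 on the same strand, so reads there could be assigned to either.

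The gene clec-222 (chromosome V, 11271351 to 11272467) had 11.3, 11.1 and 7.57 CPM in starved N2, against 0.302, 0.496 and 0.443 CPM in fed N2. The lowest starved library was far above the highest fed one (log2 fold change 4.55 ± 0.46, edgeR adjusted p = 4.74e-07). Its neighbour clec-223, 1 gene along the chromosome on the same strand, averaged 20.7 ± 6.40 CPM in starved N2 and 1.98 ± 1.59 CPM in fed N2 (SD, n = 3 each). That was a log2 fold change of 3.38 ± 0.74 (edgeR adjusted p = 0.00195).

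The gene clec-7 (chromosome V, 7328392 to 7330002) had 36.1, 33.0 and 44.0 CPM in starved N2, against 1.66, 3.08 and 4.73 CPM in fed N2. The groups were well apart, with a log2 fold change of 3.58 ± 0.28 (edgeR adjusted p = 2.57e-08). It rose by a like amount in the mutants, with log2 fold changes of 3.48 ± 0.28 in efk1, 3.40 ± 0.28 in zip2 and 2.88 ± 0.27 in cep1.

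Other members that rose in N2 were lower in level or more variable. A log2 fold change of 3.39 ± 0.67 for clec-218 came from 49.6 ± 28.7 CPM in starved N2 and 4.71 ± 2.48 CPM in fed N2, and clec-145 had 3.16 ± 0.42 (edgeR adjusted p = 0.000951 and 1.43e-05). The gene clec-266, on the X chromosome, reached 5.34 ± 2.94 CPM in starved N2, against 0.133 CPM in fed N2, a log2 fold change of 5.29 ± 1.12 (edgeR adjusted p = 0.00151). For clec-68, starved N2 libraries held 70 counts and fed N2 libraries 2, a ratio of 37.0 after scaling, with a 95% counting interval of 9.86 to 311. The rises of clec-33 (2.75 ± 0.77) and clec-190 (2.63 ± 0.84) also passed (edgeR adjusted p = 0.0107 and 0.0211). The call of clec-190 held in 3 of 6 fits that each lacked 1 library.

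Falls in N2 were as large as the rises. The gene clec-206 (chromosome V, 2000418 to 2004329, minus strand) had 0.256, 0.0676 and 0.742 CPM in starved N2, against 11.7, 9.53 and 20.6 CPM in fed N2. The groups did not overlap, and the log2 fold change was -5.09 ± 0.69 (edgeR adjusted p = 1.68e-05). The gene clec-57 (chromosome V, 14469231 to 14472448) had 1.74, 0.879 and 3.09 CPM in starved N2, against 18.2, 45.4 and 40.5 CPM in fed N2. The highest starved library was well below the lowest fed one (log2 fold change -4.13 ± 0.61, edgeR adjusted p = 4.69e-05).

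On the X chromosome, clec-265 (3031783 to 3033117) had 4.35, 1.62 and 4.82 CPM in starved N2, against 76.8, 59.2 and 51.0 CPM in fed N2. These sets were also far apart, with a log2 fold change of -4.09 ± 0.37 (edgeR adjusted p = 1.58e-07). The neighbours clec-167 and clec-169 on chromosome IV fell together, by 4.99 ± 0.69 and 3.53 ± 0.64 on the log2 scale (edgeR adjusted p = 2.08e-05 and 0.000406). The log2 fold changes of clec-210 (-3.47 ± 0.68), clec-229 (-3.36 ± 0.63), clec-239 (-3.20 ± 0.69) and clec-247 (-3.04 ± 0.68) all passed the test. For clec-242, starved N2 libraries held 2 counts and fed N2 libraries 32, a ratio of 0.066 with a 95% counting interval of 0.00766 to 0.259.

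**Figure D1:**
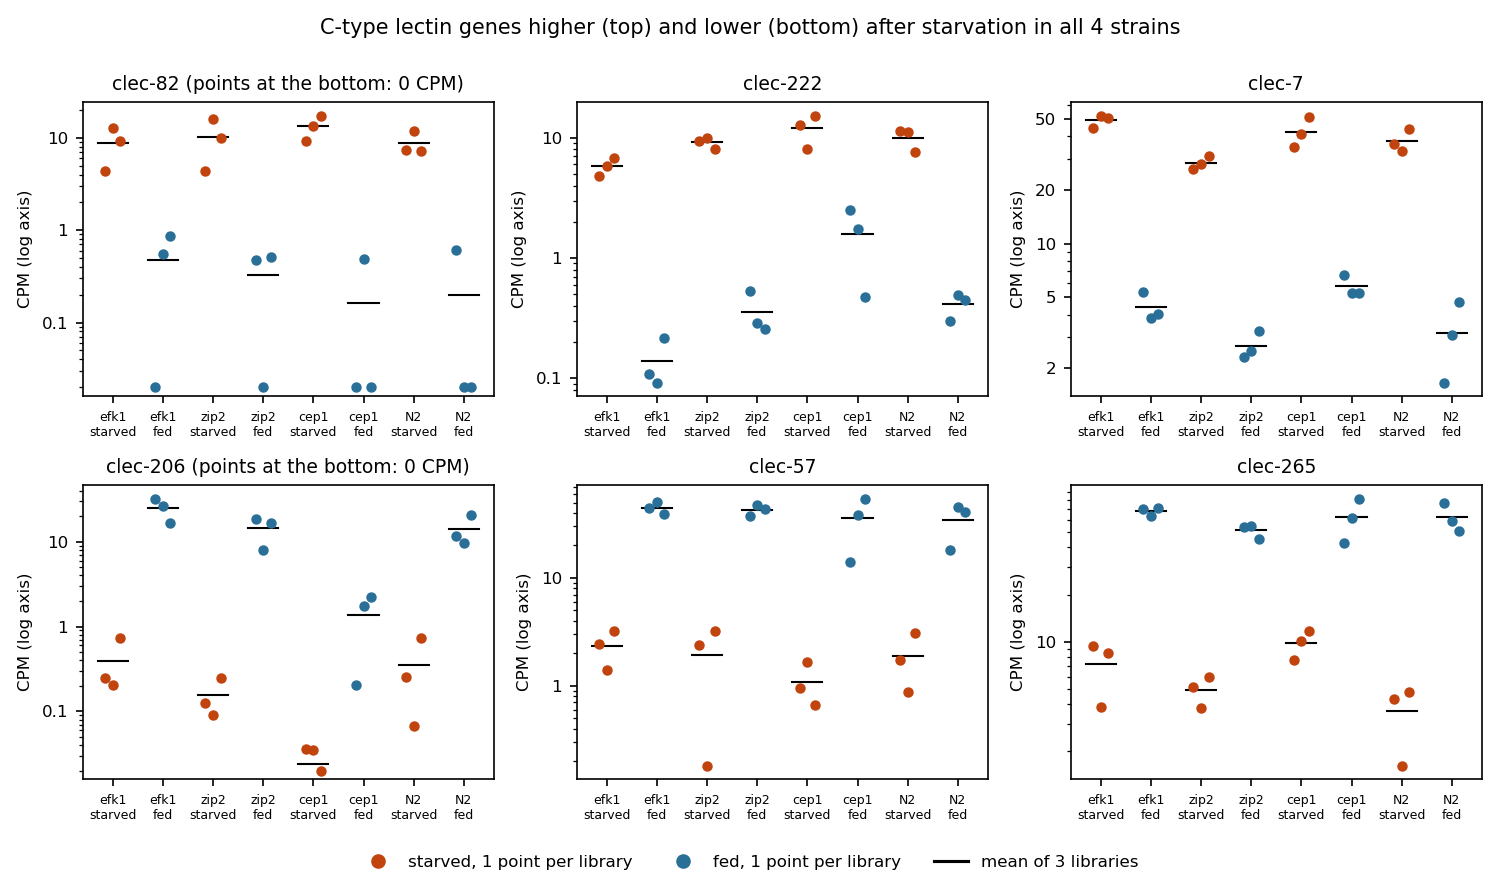
CPM (log axis) of 6 C-type lectin genes in each library, by strain and feeding state, with starved groups left of fed ones; each point is 1 library, the bar is the mean of 3 and points at the bottom mark 0 CPM. The 3 genes of the top row are higher in starved than in fed libraries of the same strain and the 3 of the bottom row lower, with fed cep1 (0.203, 1.74 and 2.21 CPM) well below the other fed groups for clec-206.

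Members changed in both directions in the mutants as well. In efk1, 33 members rose and 30 fell, against 13.7% and 11.6% of all genes. In zip2, 28 rose and 33 fell, against 17.6% and 16.8% of all genes. In the libraries labelled cep1, 33 rose and 30 fell, against 12.3% and 16.1% of all genes. The share of members called in either direction was 37.3% in efk1, 36.1% in zip2 and 37.3% in cep1, against 25.4%, 34.4% and 28.4% of all genes in the same order of strains. The members' median log2 fold change was 0.08 in efk1, -0.25 in zip2 and 0.28 in cep1, while over all genes it was 0.06, 0.01 and 0.01.

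The 4 starvation comparisons share no library, so their calls can be counted together. Of 169 members, 17 rose in all 4 strains and 19 fell in all 4, which is 10.1% and 11.2% of the members, against 5.56% and 6.81% of all genes. Of the rest, 74 members were called in no strain. Of those that rose anywhere, 21 did so in 1 strain, 6 in 2 and 9 in 3, and of those that fell anywhere the counts were 8, 9 and 8. A call in fewer strains does not show that the strains differ.

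The 17 members that rose in all 4 strains were clec-7, clec-25, clec-28, clec-33, clec-40, clec-49, clec-54, clec-55, clec-61, clec-68, clec-75, clec-82, clec-145, clec-146, clec-218, clec-222 and clec-264. The 19 that fell were clec-1, clec-6, clec-53, clec-56, clec-57, clec-64, clec-89, clec-167, clec-169, clec-170, clec-186, clec-187, clec-206, clec-210, clec-229, clec-239, clec-242, clec-247 and clec-265. The log2 fold change of clec-82 was 4.25 ± 0.99 in efk1, 4.85 ± 1.01 in zip2 and 6.32 ± 1.09 in cep1 (edgeR adjusted p = 0.00338, 0.0014 and 0.000224). For clec-57 it was -4.24 ± 0.61 in efk1, -4.41 ± 0.62 in zip2 and -5.001 ± 0.64 in cep1. The same estimate for clec-222 was 5.41 ± 0.54 in efk1, 4.66 ± 0.47 in zip2 and 2.93 ± 0.40 in cep1. In cep1 its fed level was 2.52, 1.74 and 0.475 CPM, above the fed N2 values in 2 of the 3 libraries. Several of the largest folds rest on a near absence in 1 state. Starved efk1 libraries held 3 counts of clec-167, a ratio to fed efk1 of 0.0123 with a counting interval of 0.00252 to 0.0365. Starved zip2 libraries held 2 (ratio 0.0106, interval 0.00127 to 0.0387) and starved cep1 libraries 3 (ratio 0.0159, interval 0.00325 to 0.0471). Starved cep1 libraries held none of clec-239, which was at least 16.6-fold lower than in fed cep1, with a floor of 3 counts over the group.

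**Figure D2:**
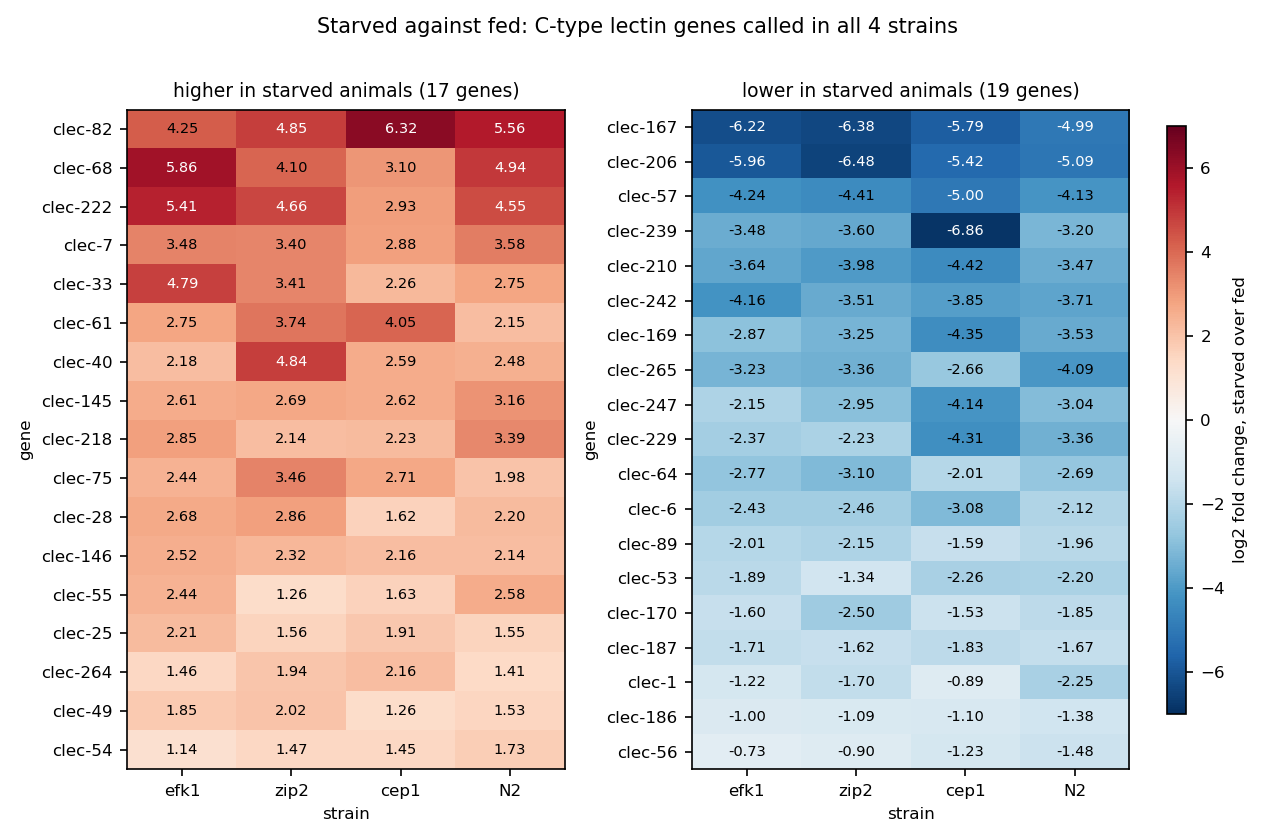
Log2 fold change, starved over fed, in efk1, zip2, cep1 and N2 for the 17 members called higher and the 19 called lower in all 4 strains, with the fitted value printed in each cell and genes ordered by size. Values range from 6.32 for clec-82 in cep1 to -6.86 for clec-239 in cep1, where starved libraries held no count and the fitted value is no bound.

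Neighbouring members moved alike in some runs and apart in others. The runs described first were chosen from the 12 after their values had been seen. In the run of 10 on chromosome IV, 2 members rose in each strain, and 1 fell in efk1 and 1 in N2. No member was called in any strain in the runs from clec-136 to clec-139 and from clec-197 to clec-199. In the run of 12 on chromosome V, 8 members rose in efk1, 4 in zip2, 7 in cep1 and 6 in N2. None fell in any strain, and clec-40, clec-25, clec-28 and clec-33 rose in all 4. Of all genes, 13.7% rose in efk1, 17.6% in zip2, 12.3% in cep1 and 15.9% in N2, and 5.56% rose in all 4 strains. In the run on chromosome IV from 1245171 to 1274425, clec-167, clec-169 and clec-170 fell in all 4 strains and no member rose. Of all genes, 6.81% fell in all 4. The run on chromosome V from 14469231 to 14482317 was split. Its members clec-54 and clec-55 rose in all 4 strains, while clec-57 and clec-56, which lie just before them on the same strand, fell in all 4. In N2, clec-54 had 8.49, 9.67 and 9.21 CPM in starved libraries, against 1.61, 3.71 and 2.85 CPM in fed ones, and clec-56 had 24.8, 33.8 and 26.5 CPM in starved libraries, against 83.7, 78.4 and 74.7 CPM in fed ones. Neither pair of groups overlapped, and the log2 fold changes were 1.73 ± 0.29 and -1.48 ± 0.21 (edgeR adjusted p = 0.000181 and 3.43e-05). Closely related neighbours can share reads, so their estimates are less certain than those of members that stand alone.

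A list of 12 C-type lectin genes reported to be induced by bacteria or to act against them was described separately. Of its genes, 10 are members and were tested, and clec-29 and clec-39 were under the count rule. With starvation, 2 of 10 rose and 3 fell in efk1, 1 rose and 1 fell in zip2, 3 rose and none fell in cep1, and 1 rose and 2 fell in N2, so the list did not move one way. Of all genes, 13.7% rose and 11.6% fell in efk1, and 17.6% rose and 16.8% fell in zip2. In cep1 12.3% rose and 16.1% fell, and in N2 15.9% rose and 16.4% fell. The gene clec-49, which is needed for resistance to Serratia marcescens, rose in all 4 strains. It had 43.2, 64.8 and 39.8 CPM in starved N2, against 15.9, 16.2 and 18.9996 CPM in fed N2, without overlap. Its log2 fold change was 1.85 in efk1, 2.02 in zip2, 1.26 in cep1 and 1.53 ± 0.33 in N2 (edgeR adjusted p = 0.000438, 0.000193, 0.00707 and 0.00195).

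Others of this list fell or changed in some strains. The gene clec-67 had 5.42, 2.71 and 7.26 CPM in starved N2, against 23.8, 23.4 and 18.6 CPM in fed N2, with no overlap, and its fall passed in efk1 (-1.37) and N2 (-2.08 ± 0.39; edgeR adjusted p = 0.0121 and 0.00063). Values of clec-4 were 6.75, 1.15 and 6.06 CPM in starved N2, against 24.3, 11.02 and 14.6 CPM in fed N2. They did not overlap either, and its fall passed in efk1 (-1.48) and N2 (-1.82 ± 0.45; edgeR adjusted p = 0.0187 and 0.00499). The gene clec-60, which is induced by Staphylococcus aureus, rose in efk1 (2.41, edgeR adjusted p = 0.0227) and cep1 (3.50 ± 0.70, edgeR adjusted p = 0.000898). No starvation call was made for clec-52, clec-63, clec-70, clec-71 or clec-85.

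Genes known to act upstream of immune lectins were read from lists as well. Of the 6 p38 pathway genes tested, none passed the starvation test in zip2, cep1 or N2, and in efk1 the phosphatase gene vhp-1 fell by 0.69 on the log2 scale (edgeR adjusted p = 0.0495). In cep1 its estimate was nearly the same and just missed the threshold (-0.66 ± 0.25, edgeR adjusted p = 0.054). In starved cep1, tir-1, the adaptor at the head of the pathway, was higher than in starved N2 by 1.06 ± 0.28 (edgeR adjusted p = 0.0240). Of 13 tested regulators of immunity and stress, 4 rose and 1 fell in efk1, 4 rose and 1 fell in zip2, 1 rose and 2 fell in cep1, and 2 rose and 1 fell in N2. The bHLH factor gene hlh-30 rose in all 4 strains (1.23, 1.23, 1.05 and 0.92 in efk1, zip2, cep1 and N2) and zip-10 fell in all 4 (-1.60, -1.56, -1.11 and -1.16). None of the 13 was called between a mutant and N2 in the same state.

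Of the most abundant members, clec-87, clec-88 and clec-91 rose with starvation. In N2, clec-87 had 1077, 1423 and 787 CPM in starved libraries, against 415, 400 and 335 CPM in fed ones, with no overlap. Its log2 fold change was 1.77 ± 0.45 in efk1, 1.88 ± 0.45 in zip2, 1.03 ± 0.44 in cep1 and 1.51 ± 0.44 in N2 (edgeR adjusted p = 0.00616, 0.0036, 0.0816 and 0.0134), so it passed in 3 strains and not in cep1. The same was true of clec-88 (1.45 ± 0.37 in N2, 0.97 in cep1) and clec-91 (1.49 in N2, 1.04 in cep1), whose adjusted p in cep1 was 0.0525 and 0.0651. In cep1, clec-87 had 991, 792 and 1700 CPM in starved libraries, against 839, 648 and 222.3 CPM in fed ones, and these sets overlap.

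Genes that mark oocytes moved with these 3 members. Of 15 oocyte markers, 14 rose in efk1, 15 in zip2, none in cep1 and 10 in N2. Their summed level was 4632 to 10992 CPM in starved efk1, against 2605 to 3293 CPM in fed efk1. It was 7524 to 16228 CPM in starved zip2, against 2572 to 5434 CPM in fed zip2, and 8870 to 15147 CPM in starved N2, against 4377 to 5315 CPM in fed N2. In cep1 it was 7830 to 19145 CPM in starved libraries, against 3420 to 11351 CPM in fed ones. In fed cep1 replicates 1, 2 and 3 the sum was 11351, 7535 and 3420 CPM, and clec-87 was 839, 648 and 222.3 CPM in the same libraries. The part of the oocyte markers in the change of clec-87, clec-88 and clec-91 was not tested. Of 8 hypodermis markers, 6 fell in efk1, 6 in zip2, 5 in cep1 and 6 in N2, and of 10 intestine markers 2 fell in each strain, while in efk1 1 also rose. Their part in the falls of other members was not tested either.

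Other abundant members behaved in their own way. The gene clec-1 (chromosome V, 5700154 to 5701080) had 22.0, 33.5 and 23.1 CPM in starved N2, against 123, 116 and 135 CPM in fed N2. These sets were far apart. Its fall passed in each strain, by 1.22 in efk1, 1.70 in zip2, 0.89 in cep1 and 2.25 ± 0.29 in N2 on the log2 scale (edgeR adjusted p = 0.00297, 0.000171, 0.0199 and 8.32e-06). The rise of clec-50 passed in efk1 (0.76, edgeR adjusted p = 0.049) and zip2 (0.77, edgeR adjusted p = 0.0385), and the rise of clec-48 in the same strains (0.88 and 1.04). No starvation call was made for clec-83 or clec-150.

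Whether a mutant responded differently from N2 was tested as an interaction, the starvation change in the mutant minus that in N2. No member passed in efk1, zip2 or cep1 by edgeR, and 0.246% of all genes passed in efk1 and none in zip2 or cep1. Unadjusted p was under 0.05 for 9 members in efk1, 11 in zip2 and 24 in cep1. DESeq2 called none in efk1 or zip2 and 3 in cep1, namely clec-78, clec-80 and clec-86. Without starved cep1 replicate 1, edgeR called 2 members in cep1, and without replicate 3 it called 1. The smallest adjusted p in cep1 was that of clec-86, one of the genes induced by bacteria described above. It had 4.69, 8.37 and 14.4 CPM in starved cep1, against 2.56, 2.75 and 3.56 CPM in fed cep1, without overlap, and 2.51, 2.84 and 1.92 CPM in starved N2, against 4.88, 3.44 and 4.77 CPM in fed N2, again without overlap. The interaction was 2.48 ± 0.50 on the log2 scale (edgeR adjusted p = 0.0632), so the opposite directions did not pass over all genes.

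All 3 mutants had a group of lectin genes lower than N2. In fed animals, 28 members were lower and none higher in efk1, 30 lower and none higher in zip2, and 34 lower and 3 higher in cep1. Among all genes, 1.43% were lower and 0.0819% higher in fed efk1, 1.1% lower and 0.0315% higher in fed zip2, and 2.53% lower and 2.36% higher in fed cep1. In starved animals, 37 were lower and none higher in efk1, 36 lower and none higher in zip2, and 39 lower and 15 higher in cep1. Among all genes, 1.23% were lower and 0.693% higher in starved efk1, 1.26% lower and 0.0441% higher in starved zip2, and 4.37% lower and 3.33% higher in starved cep1. Some of these lower members had entered through the N2 libraries alone, so a further limit was added after seeing the data. Among the 149 members with 10 or more counts in at least 3 mutant libraries, 17 were lower in fed efk1, 17 in fed zip2 and 20 in fed cep1, against 1.02%, 0.626% and 2.03% of the 15665 genes tested with such counts. In starved animals 17 were lower in efk1, 16 in zip2 and 19 in cep1, against 0.594%, 0.606% and 3.75% of those genes. The mutant comparisons of each state use the same 3 N2 libraries, so what is particular to those libraries enters all 3.

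The counts depended on single libraries. In fed efk1 against N2 the count of 28 fell to 8, 11 and 10 when efk1 replicate 1, 2 or 3 was left out and to 17 without N2 replicate 3. In fed zip2 against N2 the count of 30 fell to 16 without zip2 replicate 2, 11 without zip2 replicate 3 and 18 without N2 replicate 3. In fed cep1 against N2 the count of 37 fell to 18 without cep1 replicate 1 and 22 without cep1 replicate 2. In starved cep1 against N2 the count of 54 fell to 28 without N2 replicate 3 and 33 without cep1 replicate 1. When edgeR was given the libraries of just the 2 groups, fed cep1 against N2 gave 19 calls and starved cep1 against N2 gave none by edgeR, with 66 members at an unadjusted p under 0.05, while DESeq2 on all libraries called 61. In starved efk1 the same-numbered libraries deviated together with those of starved N2, and with the replicate number as a block 38 of 145 tested members were higher and 38 lower. With the block, 2 members were higher and 31 lower of 141 tested in starved zip2 against N2. Fits of the same 2 groups without the block gave 31 calls in starved efk1 and 26 in starved zip2. No share of all genes is given for the fits with the block, so their counts do not set members against other genes.

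Most of these calls came from 1 set of members. For 31 of the 169 tested members (18.3%), all 6 N2 libraries, starved and fed, were above all 18 mutant libraries, against 1.02% of all genes tested, or 162 genes. No member had all N2 libraries below all mutant libraries, and 1 gene in all did (0.0063%). Of the 31, 15 had reached the count rule in N2 libraries alone, so the rule itself fixed part of this share. Among the 149 members and 15665 genes with 10 or more counts in at least 3 mutant libraries, the pattern was found in 16 members (10.7%), against 0.492% of those genes. They were low in level, with mean CPM of 0.0411 to 1.47 in the mutants (median 0.243), against 0.484 to 16.6 in N2 (median 2.43). Summed over the 31, the level was 4.43 to 29.96 CPM in the mutant libraries, against 77.1 to 154 CPM in the N2 libraries. The N2 mean was 4.07 to 17.7 times the mutant mean, with a median of 11.3. The 31 made up 26 of the 28 members called lower in fed efk1, 27 of 30 in fed zip2 and 29 of 34 in fed cep1, and 31 of 37 in starved efk1, 30 of 36 in starved zip2 and 30 of 39 in starved cep1. Since the 31 were chosen for this separation, these values are a description and carry no test.

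The member of this set with the highest level was clec-197 (chromosome IV, 17345553 to 17346699, minus strand). It had 0.122 to 5.21 CPM in the mutant libraries, against 19.8, 17.3 and 22.0 CPM in starved N2 and 10.7, 10.99 and 18.8 CPM in fed N2. The highest mutant libraries were starved cep1 replicates 2 and 3, at 4.13 and 5.21 CPM. For clec-219 (chromosome V, 8318435 to 8322867) the mutant libraries had 0.163 to 3.05 CPM, against 11.9, 11.03 and 13.6 CPM in starved N2 and 6.79, 8.04 and 12.01 CPM in fed N2. The gene clec-96 had 0.0364 to 0.775 CPM in the mutants, against 2.71, 1.35 and 2.53 CPM in starved N2 and 2.16, 2.68 and 3.15 CPM in fed N2. The genes clec-197 and clec-219 were named after their values had been seen.

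Sizes of the difference are given for clec-96 and its neighbours. The log2 fold change of clec-96 was -3.82 in fed efk1, -3.36 in fed zip2 and -5.49 in fed cep1 against fed N2. It reached the count rule in N2 alone, so these values are a description. In starved efk1, where 3 counts remained against 155 in starved N2, the ratio was 0.0197 with a counting interval of 0.00403 to 0.0588. Against starved N2, clec-96 was at -4.14 in starved zip2 and -2.60 in starved cep1. It lies on chromosome I in a run of 5 members from 11146448 to 11158833 with clec-94, clec-95, clec-97 and clec-99. In that run, clec-95 and clec-99 also had all N2 libraries above all mutants, while clec-97 did not, with 0.539 to 13.9 CPM in the mutants, against 3.17 to 7.44 CPM in N2.

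In starved zip2, no count of clec-103, clec-157 or clec-261 was found in the 3 libraries. Levels there were at least 30.6-fold, 15.3-fold and 15.1-fold lower than in starved N2, with a floor of 3 counts over the group, and since these 3 members reached the count rule in N2 alone, no test is given. For clec-217, starved zip2 libraries held 1 count, against 210 in starved N2, a ratio of 0.00622 with an interval of 0.000157 to 0.035. For clec-107, starved efk1 libraries held 1 count, against 121 in starved N2, a ratio of 0.00843 with an interval of 0.000212 to 0.0479. Both clec-217 and clec-107 also reached the count rule in N2 alone, so their ratios and intervals are a description and carry no test. In fed efk1 the calls included clec-94, with 2 counts, against 96 in fed N2, a ratio of 0.0271 with an interval of 0.00323 to 0.10. The call of clec-94 held in 1 of 6 fits that each lacked 1 library.

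The 31 members were shorter than the rest, with a median exon length of 744 bases, against 1243 bases for the other 138 tested members. By chromosome, 9 lie on I, 9 on II, 2 on III, 3 on IV and 8 on V. They were not all neighbours: 9 of the 31 lie in 4 of the runs described above. With starvation in N2, 3 of the 31 rose and none fell, namely clec-126 (1.07), clec-232 (1.52) and clec-263 (1.52 on the log2 scale), which were named after their values had been seen. Among the other 138 tested members, clec-94, clec-107, clec-133, clec-134, clec-135 and clec-157 had the highest ratios of N2 mean to mutant mean. For clec-94 and clec-135, 5 of 6 N2 libraries were above all mutant libraries. For clec-107, clec-133, clec-134 and clec-157, 4 of 6 were.

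Markers of males were read beside this set. Of 14 male markers, 13 were in the table and srj-54 was at 0 in all libraries. The mean was higher in N2 than in the mutants for 11 of the 13, and cwp-2 and trf-1 had all N2 libraries above all mutants. The summed level of the 13 was 2.58 to 9.86 CPM in the mutant libraries, against 7.71 to 13.6 CPM in the N2 libraries, and these ranges overlap. Most of that sum came from mab-3, try-5 and cwp-4. Single markers differed in how far apart they were. The mean of cwp-1 was 0.0518 CPM in the mutants, against 0.499 CPM in N2, and that of cwp-2 0.0707 CPM, against 0.593 CPM. By contrast, cwp-4 was at 1.16 CPM in the mutants, against 1.26 CPM in N2, and asic-2 was higher in the mutants (0.740 CPM, against 0.686 CPM). Of the 8 male markers tested, none was lower than in N2 by edgeR in fed efk1, 1 in fed zip2 and 2 in fed cep1. In starved animals 2 were lower in efk1, 2 in zip2 and 4 in cep1, and none was higher in any mutant group. The 4 were cwp-2, pkd-2, trf-1 and try-5. Their part in the difference of the 31 members was not tested.

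**Figure D3:**
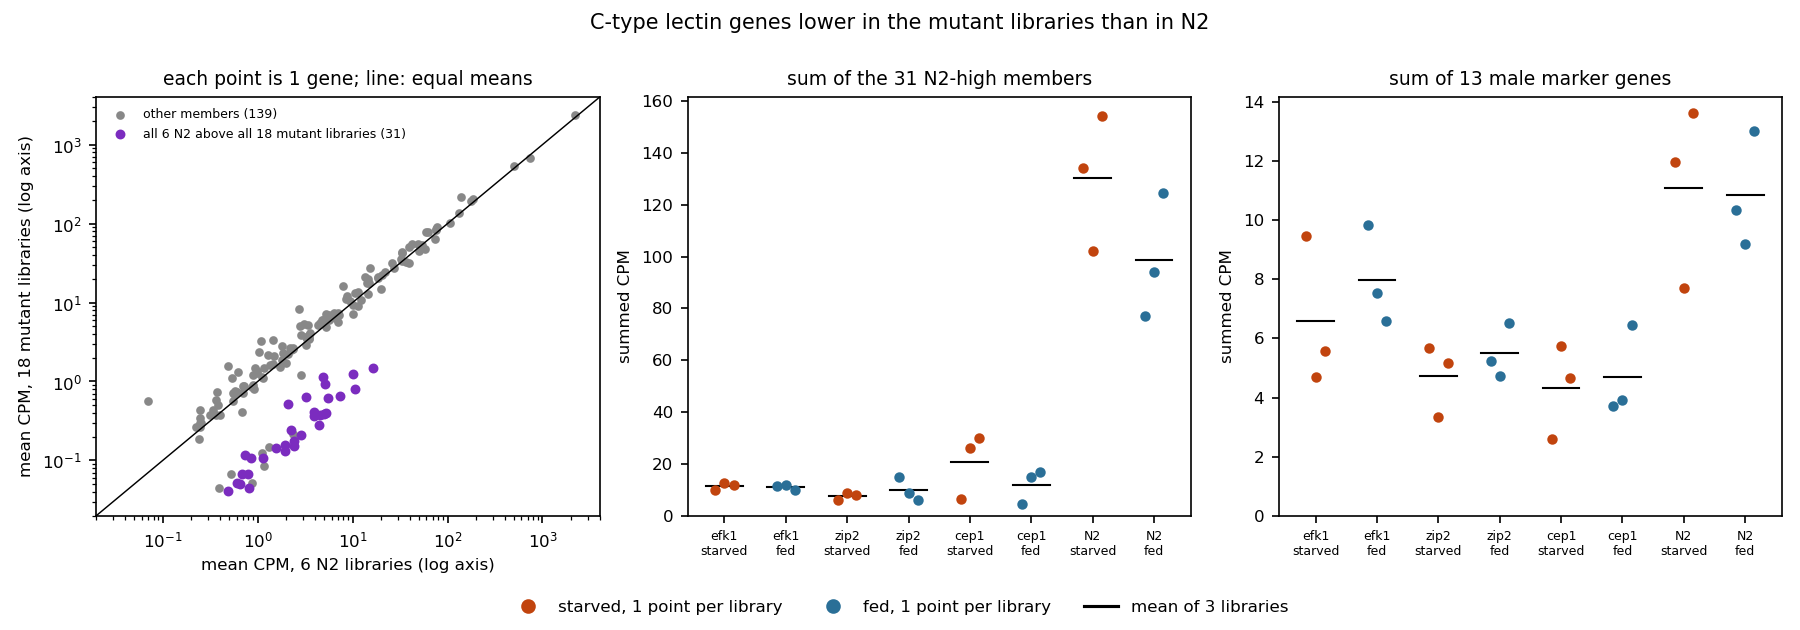
Left, mean CPM of each member over the 18 mutant libraries (vertical log axis) and over the 6 N2 libraries (horizontal log axis), with the 31 members whose N2 libraries were all above all mutant libraries in purple and a line of equal means; middle and right, summed CPM of those 31 members and of 13 male marker genes in each library, with the mean of 3 as a bar. The 31 members lie below the line and sum to 4.43 to 29.96 CPM in mutant and 77.1 to 154 CPM in N2 libraries, while the male marker sums overlap.

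In fed cep1, 3 members were higher than in fed N2. That is 1.78% of the members tested, a share no higher than the 2.36% of all genes. The log2 fold changes were 3.82 ± 0.82 for clec-190, 2.58 ± 0.72 for clec-223 and 1.90 ± 0.45 for clec-222 (edgeR adjusted p = 0.0127, 0.0434 and 0.0219). Values of clec-190 were 4.55, 2.43 and 0.554 CPM in fed cep1, against 0.0503, 0.132 and 0.345 CPM in fed N2, without overlap. For clec-223 they were 27.5, 6.12 and 2.02 CPM in fed cep1, against 0.251, 2.28 and 3.40 CPM in fed N2, which overlap. These 3 members also rose with starvation in N2. In all 3, fed cep1 replicate 1 was the highest fed cep1 library and replicate 3 the lowest. The calls held in 3, 1 and 2 of 6 fits that each lacked 1 library, for clec-190, clec-223 and clec-222 in that order.

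Starved cep1 stood apart from starved N2 with 15 members higher, or 8.88% of those tested, against 3.33% of all genes. For clec-196, clec-264 and clec-266, all 3 starved cep1 libraries were above the other 21 libraries. These genes were 3 of the 169 tested members, a share no higher than the 2.74% of all genes with this pattern. The gene clec-196 had 12.5, 5.43 and 4.04 CPM in starved cep1, against 0.819, 1.22 and 0.371 CPM in starved N2 (log2 fold change 3.25 ± 0.58, edgeR adjusted p = 0.00271). Values of clec-266 were 74.2, 30.5 and 15.9 CPM in starved cep1, against 7.57, 6.43 and 2.01 CPM in starved N2 (2.93 ± 0.83, edgeR adjusted p = 0.0338). The groups did not overlap for either gene, but the cep1 libraries differed among themselves by several fold. For clec-264 the cep1 values were close, at 14.4, 13.9 and 13.8 CPM in starved cep1, against 8.39, 9.74 and 6.67 CPM in starved N2 (0.77 ± 0.19, edgeR adjusted p = 0.0191). Exons of clec-266 overlap kqt-1, and those of clec-264 overlap fkb-6, both on the other strand. The call of clec-266 held in 2 of 6 such fits.

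Of the bacterial list, clec-60, clec-67 and clec-86 were higher in starved cep1 than in starved N2 and none was lower, and the median log2 fold change of the 10 tested was 1.62. Of all genes, 3.33% were higher and 4.37% lower, with a median log2 fold change of 0.04. The gene clec-60 had 2.47, 17.2 and 19.2 CPM in starved cep1, against 1.996, 1.29 and 1.11 CPM in starved N2 (3.14 ± 0.69, edgeR adjusted p = 0.0103). All cep1 libraries were above all N2 libraries, by little in replicate 1. The gene clec-67 had 10.9, 21.2 and 30.7 CPM in starved cep1, against 5.42, 2.71 and 7.26 CPM in starved N2 (2.01 ± 0.39, edgeR adjusted p = 0.00525), again without overlap. For clec-86 the log2 fold change was 1.92 ± 0.36 (edgeR adjusted p = 0.0035). Next to clec-60 on chromosome II, clec-61 was higher by 1.65 ± 0.50 (edgeR adjusted p = 0.0465). The other members higher in starved cep1 were clec-78 (2.75 ± 0.50, edgeR adjusted p = 0.003), clec-1, clec-15, clec-42, clec-66, clec-80, clec-172 and clec-265, with log2 fold changes of 1.17 to 4.46. None of these 15 calls was kept in the edgeR fit of only the starved cep1 and N2 libraries. The symbol clec-15 stands for 2 loci. These names were listed in full after their values had been seen. Of these 15 members, clec-1 and clec-265 fell with starvation in N2 and in cep1, while clec-266, clec-264 and clec-61 rose in both.

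**Figure D4:**
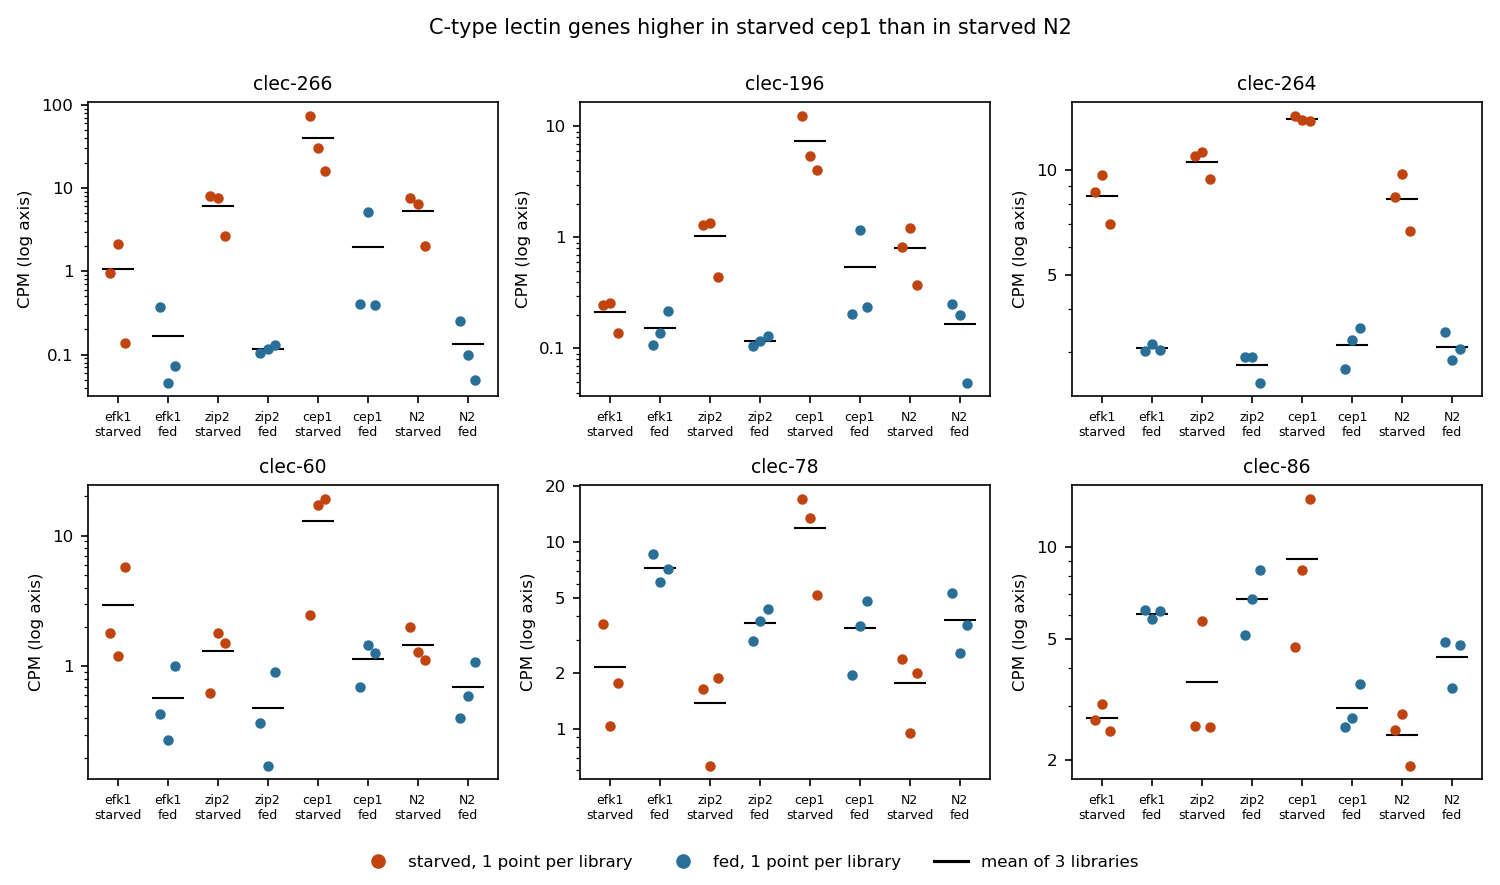
CPM (log axis) of 6 members that were higher in starved cep1 than in starved N2, in each library by strain and state, with starved left of fed; each point is 1 library and the bar is the mean of 3. Starved cep1 is above every other group for clec-266, clec-196 and clec-264, while clec-60, clec-78 and clec-86 have starved cep1 libraries within the range of another group.

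The mutants were also set against each other. Between efk1 and zip2 no member was called by edgeR in fed or in starved animals, where 0.302% and 0.0756% of all genes were called. Unadjusted p was under 0.05 for 13 members fed and 27 starved, and DESeq2 called 2 fed, clec-67 and clec-97, and none starved. Same-numbered libraries of starved efk1 and starved zip2 deviated together, and with the replicate block 17 of 120 tested members were higher and 4 lower in efk1. The fit of these 2 groups without the block gave 0 calls, and no share of all genes is given for the fit with it. Between efk1 and cep1, 5 members were higher and 7 lower in fed efk1, against 2.85% and 6.09% of all genes, and 18 were higher and 15 lower in starved efk1, against 12.8% and 6.7% of all genes. Between cep1 and zip2, 5 were higher and 1 lower in fed cep1, against 1.15% and 0.554% of all genes, and 21 were higher and 9 lower in starved cep1, against 4.2% and 6.29% of all genes. Tissue markers moved in these starved comparisons too. In starved efk1, 4 of 5 muscle, 4 of 5 pharynx, 3 of 16 sperm and 2 of 8 hypodermis markers were higher than in starved cep1. Of 10 intestine markers, 2 were higher and 1 lower. The muscle markers summed to 8594 to 11178 CPM in starved efk1, against 3828 to 6282 CPM in starved cep1, and the pharynx markers to 351 to 550 CPM in starved efk1, against 159 to 259 CPM in starved cep1, and neither pair of ranges overlaps. In starved cep1, 4 of 16 sperm and 2 of 5 muscle markers were lower than in starved zip2. The part of these markers in the calls of members was not tested.

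Fed cep1 differed in clec-206, the member with the largest fall in starved N2. Its values were 0.203, 1.74 and 2.21 CPM in fed cep1, against 11.7, 9.53 and 20.6 CPM in fed N2, with no overlap. It was lower in fed cep1 by 3.32 ± 0.61 against fed N2 and by 3.38 ± 0.61 against fed zip2 on the log2 scale (edgeR adjusted p = 0.0042 and 0.0053). It was higher in fed efk1 than in fed cep1 by 4.17 ± 0.62 (edgeR adjusted p = 0.000767). In fed cep1 replicates 1, 2 and 3, hypodermis markers summed to 728, 1672 and 2410 CPM, against 1243 to 3450 CPM in fed N2. Oocyte markers in the same cep1 libraries summed to 11351, 7535 and 3420 CPM, against 4377 to 5315 CPM in fed N2. The part of these markers in the level of clec-206 was not tested. Fed cep1 also held more clec-222 than fed zip2 (2.13 ± 0.47, edgeR adjusted p = 0.0241), and fed efk1 less than fed cep1 (-3.53 ± 0.56, edgeR adjusted p = 0.00126). In fed efk1 against fed cep1, clec-87, clec-88 and clec-91 were lower by 1.42, 1.60 and 1.37 on the log2 scale, and 8 of the 15 oocyte markers were lower as well.

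Single libraries weighed on these counts. In fed efk1 against fed cep1 the 12 calls became 5 when any 1 of 5 of the 6 libraries was left out and 20 without cep1 replicate 3. In fed cep1 against fed zip2 the 6 calls became 1 to 11 when each of the 6 libraries in turn was left out, always more than 1.5 times away. In starved efk1 against starved cep1 the 33 calls became 21 without efk1 replicate 1 and 20 without efk1 replicate 3. In starved cep1 against starved zip2 the 30 calls became 12 without zip2 replicate 3. In edgeR fits of only the groups compared, fed efk1 against fed zip2 gave 11 calls, fed efk1 against fed cep1 20, fed cep1 against fed zip2 2 and starved efk1 against starved cep1 5. Starved cep1 against starved zip2 gave none in such a fit, with 33 members at an unadjusted p under 0.05 and 43 called by DESeq2.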

How the data were processed

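mRNA of whole worms was sequenced strand-specifically, 75 bases from each end, per the labels' protocols. The authors deposited estimated counts per gene, made with Trimmomatic 0.36 and Salmon 0.9.1 on WBcel235 with edgeR also named, per the submitters' processing notes. How transcripts were summed to genes, and the use of strand, is not given in the sources used here. Of non-zero values, 10.6% were fractional, and values were rounded. Genes passed filterByExpr in edgeR 4.0.16 (R 4.3.3, limma 3.58.1; minimum count 10, total 15). After TMM scaling, quasi-likelihood tests used all 8 groups together (16 residual degrees of freedom, biological coefficient of variation 29%). DESeq2 1.42.0 was an alternative, with 2-group fits, a replicate block, no filter and each library left out. On counts simulated for N2 starved minus N2 fed (15533 genes), 94 of 100 genes changed 4-fold and 22 of 100 changed 2-fold were recovered, with 4 false calls. Only 200 genes were changed there, while 32.3% of all genes were called in the data. Recovery at levels under 1 CPM, where 52 members lie on average, was not tested. Intervals on few counts are exact, at 95%, and cover counting error only. Coordinates and exon lengths come from the Ensembl annotation of WBcel235.

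Members and lists were chosen with earlier results of these data known. Named members are the 10 called, non-overlapping members with the largest change each way in N2 starvation, 4 each way in other comparisons, the 10 highest in mean CPM and those on the bacterial list; others were named after their values were seen. Deviations of same-numbered libraries correlated at 0.391 to 0.752 between starved efk1 and starved N2, at 0.538 to 0.693 between starved zip2 and starved N2, and at 0.383 to 0.704 between starved efk1 and starved zip2, each pair above 0.1. The labels do not say what the numbers mark.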

Additional observations from a re-analysis of the deposited data

Results flagged for a closer look

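Both members flagged here rose with starvation in cep1 and fell in efk1 and zip2. The gene clec-78, on chromosome IV, had 17.1, 13.6 and 5.21 CPM in starved cep1, against 1.95, 3.57 and 4.82 CPM in fed cep1. In efk1 it had 3.65, 1.04 and 1.75 CPM in starved libraries, against 8.67, 6.10 and 7.16 CPM in fed ones, and in zip2 1.62, 0.633 and 1.87 CPM in starved libraries, against 2.96, 3.76 and 4.38 CPM in fed ones. In each of these strains the groups did not overlap. The log2 fold change with starvation was higher in cep1 than in efk1 by 3.55 and than in zip2 by 3.18, and these differences between mutants were not tested. Against N2 the interaction in cep1 was 2.89 ± 0.68 (edgeR unadjusted p = 0.000368, adjusted p = 0.154).

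For clec-86 the log2 fold change with starvation was higher in cep1 than in efk1 by 2.76. It had 2.70, 3.05 and 2.49 CPM in starved efk1, against 6.19, 5.78 and 6.15 CPM in fed efk1, while starved cep1 libraries were above fed ones. That difference was not tested. In zip2, clec-86 also fell, with a log2 fold change of -0.93 (edgeR adjusted p = 0.045). An exon of clec-86 overlaps alh-10 on the other strand.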

How the results depend on the processing

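For the named members, of 1084 values under alternatives, 938 kept direction and side of the threshold, 146 kept direction only and 0 reversed. Many of these members were chosen as called and without overlap between groups, so a reversal was unlikely from the start. Counts below are members called in either direction. Without the low-count filter, fed cep1 against zip2 gave 3. With only the groups compared in the fit, fed cep1 against N2 gave 19, starved cep1 against N2 0, fed efk1 against zip2 11, fed efk1 against cep1 20, fed cep1 against zip2 2, starved efk1 against cep1 5 and starved cep1 against zip2 0. With the replicate block, cep1 starvation gave 41, fed zip2 against N2 12, fed cep1 against N2 14, starved efk1 against N2 76, starved cep1 against N2 1, fed efk1 against zip2 14, fed cep1 against zip2 18, starved efk1 against zip2 21, starved efk1 against cep1 5 and starved cep1 against zip2 0. Pairing by number held only for the 3 starved comparisons among efk1, zip2 and N2. DESeq2 gave 3 for the cep1 interaction, 2 for fed efk1 against zip2, 23 for fed efk1 against cep1 and 15 for fed cep1 against zip2. Leaving out 1 library gave 8 to 26 for fed efk1, 11 to 25 for fed zip2, 18 to 45 for fed cep1, 26 to 37 for starved efk1, 27 to 36 for starved zip2 and 28 to 55 for starved cep1, each against N2. It gave 0 to 2 for the cep1 interaction, 5 to 20 for fed efk1 against cep1, 1 to 11 for fed cep1 against zip2, 20 to 28 for starved efk1 against cep1 and 12 to 28 for starved cep1 against zip2. Starvation counts moved less, to 49 to 63 in efk1, 50 to 61 in zip2, 57 to 65 in cep1 and 52 to 61 in N2. Alternatives chosen after seeing the data gave 13 to 21 members higher and 13 to 21 lower in all 4 strains, and 27 to 33 members with all N2 libraries above all mutants, the lowest with plain library totals, or 16 when members also had to have 10 or more counts in at least 3 mutant libraries. Smaller fits gave more calls in some comparisons and fewer in others, and why the counts moved was not tested. At these depths, a member under 1 CPM rests on few counts per library.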
